A study of Mus musculus with 20 samples.

Results

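The beta-adrenergic signalling genes are 9 genes of the adrenergic response of heart muscle, chosen by symbol: the receptors Adrb1, Adra1a and Adra1b, the G protein gene Gnas, the adenylyl cyclases Adcy5 and Adcy6, the kinase gene Prkaca and the phosphodiesterases Pde3a and Pde4b. All 9 were found once each among the 29339 genes of the count table, and all 9 passed the filter of at least 10 counts in at least 3 libraries in every comparison. The study compared hearts of Tecrl-/- mice (KO), a mouse model of catecholaminergic polymorphic ventricular tachycardia, with hearts of wild-type (WT) C57BL/6 mice. All animals were 8 weeks old, the sources name no treatment apart from anaesthesia, and RNA was sequenced from heart tissue. Of the 20 libraries, 5 were labelled male WT, 5 male KO, 3 female WT and 7 female KO. The labels do not say which animal each came from. Names from S1 to S12 mark a first series, with 3 libraries a group. WT1, WT2 and the 6 TKO libraries mark a second (the WT/TKO libraries, 8 in all), in which no female WT heart is found.

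Noradrenaline and adrenaline bind the beta1 receptor on heart muscle cells, which activates the stimulatory G protein and through it adenylyl cyclase. The cyclic AMP made there activates protein kinase A (PKA), whose phosphorylation of calcium channels, the ryanodine receptor and phospholamban raises the rate and force of the beat, while phosphodiesterases break cyclic AMP down. In catecholaminergic polymorphic ventricular tachycardia, arrhythmia appears during exercise or emotional stress, when this pathway is active.

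Several facts of the libraries touch the comparisons. Total counts ran from 12540002 to 20038593 per library. The targeted gene Tecrl was between 51.5 and 124.5 CPM (counts scaled to a common library total with TMM, the trimmed mean of M-values) in all 20 libraries, and KO differed from WT by 0.02 on the log2 scale among male-labelled libraries and by 0.22 among female-labelled ones (edgeR, adjusted p = 0.992 and 0.40). Because the transcript of the targeted gene was present at WT level, groups are called by their labels throughout. Which part of the gene was deleted is not given in the sources used here. The Y-linked genes Ddx3y, Eif2s3y, Uty and Kdm5d summed to 182.0 CPM or more in S4 to S6, labelled female, and were at 0 in S7 to S9, labelled male, which carried Xist instead. Within the S series, all libraries labelled WT carried Xist (234.0 to 357.6 CPM) and nearly no Y-linked transcripts. All those labelled KO carried Y-linked transcripts (148.4 to 202.5 CPM) and nearly no Xist. Genotype label and sex-linked expression therefore cannot be told apart within that series. All 11 ventricular muscle markers were detected in every library. The 7 atrial markers summed to between 261.6 and 7609 CPM in S5, S6, S7, S9, S10, S11 and S12, against 11.2 to 45.9 CPM in the other 13 libraries.

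Per length, Prkaca, the main catalytic subunit of PKA in the heart, was the most abundant of the 9 genes, with a median of 76.3 FPKM, fragment counts scaled by gene length and library total, and a range of 51.0 to 91.2 over the 20 libraries. Adcy6 followed at 25.5 FPKM (20.4 to 45.2) and Adcy5 at 9.67 FPKM (7.21 to 19.5). Both are cyclases that the G protein stimulates and calcium inhibits. The ranges of Prkaca and Adcy6, and of Adcy6 and Adcy5, did not overlap.

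Further down the order, neighbours could not be told apart by their ranges. Adra1b stood at 6.85 FPKM (3.28 to 15.3) and Pde3a at 6.504 FPKM (4.03 to 9.47), with Adra1b above Pde3a in 11 of 20 libraries. Adrb1 had a median of 3.40 FPKM (2.03 to 6.91) and Pde4b of 2.81 FPKM (1.40 to 13.6), with Adrb1 above Pde4b in 13 libraries. That order depends on the length used for Adrb1. The deposited FPKM used 2491 bases where GENCODE M21 gives 3382, and with the longer length the median of Adrb1 was 2.50 FPKM and it stood above Pde4b in 8 libraries. Adra1a, at 1.40 FPKM (0.323 to 2.77), and Gnas, at 0.613 FPKM (0.415 to 1.06), closed the order, with Adra1a above Gnas in 14 libraries.

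**Figure D1:**
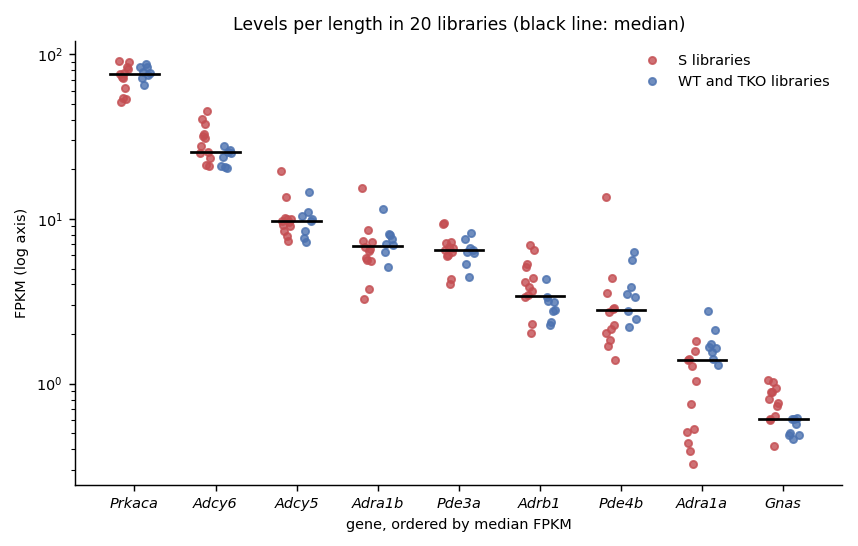
Level per length (FPKM, log axis) of each of the 9 genes in the 20 libraries, in order of the median, which is the black line. Red points are the S libraries and blue points the WT and TKO libraries. Prkaca lies at 51.0 to 91.2 FPKM above all other genes, and Adra1a and Pde4b spread the most, from 0.323 to 2.77 and from 1.40 to 13.6 FPKM.

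The low place of Gnas needs a note on counting. Gnas encodes the stimulatory alpha subunit (Gs alpha) together with other, partly imprinted, products from upstream start sites, on the plus strand of GRCm38 chromosome 2 (174284320 to 174346744). Its row held 69 to 229 counts per library. The annotation places a predicted protein-coding gene, Gm20721, on the opposite strand of the 3' part of the locus, and its row held 0 to 3 counts. The 3 Gs alpha transcripts Gnas-206, Gnas-207 and Gnas-208 share 84.7%, 80.4% and 85.4% of their exon bases with it. For 3 exons of Gnas-206 the ends on both strands are the same. One of them, exactly the reverse complement of a Gm20721 exon, is shown because reads on it belong to both genes unless strand is used:

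Gnas exon, GRCm38 chr2:174345649-174345779, plus strand, 131 bases: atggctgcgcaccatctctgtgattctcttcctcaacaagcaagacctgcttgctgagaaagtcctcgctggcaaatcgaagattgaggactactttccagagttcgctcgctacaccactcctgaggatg

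The strand setting of the counting is not given in the sources used here. The Gnas row was therefore compared with itself across libraries and not read as the level of Gs alpha. Smaller overlaps with antisense genes cover 8.92% of the exon bases of Adcy6 and 5.82% of those of Pde3a.

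The receptors were measured as follows. Adrb1 (chromosome 19, 56722199 to 56733113, plus strand), the receptor that carries most of the beta-adrenergic response of the ventricle, had 12.2 CPM in WT1, 8.56 in WT2, 7.51 in S7, 10.6 in S8 and 11.4 in S9, labelled male WT. Male-labelled KO libraries had 13.7 CPM in S10, 8.12 in S11, 8.74 in S12, 8.21 in TKO5 and 6.12 in TKO6. The 2 groups overlapped over most of their range, at 10.1 ± 1.98 CPM (SD, n = 5) and 8.98 ± 2.81 CPM (SD, n = 5). Of the female-labelled WT libraries, Adrb1 had 17.1 CPM in S1, 5.48 in S2 and 5.53 in S3. S1 stood far above the other two, and held the highest Adrb1 level of all 20 libraries. The 7 libraries labelled female KO ran from 6.02 in TKO1 to 16.5 in S6, with a median of 7.50 CPM.

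Adra1a (chromosome 14, 66635251 to 66771168, plus strand) and Adra1b (chromosome 11, 43774606 to 43901210, minus strand) encode the alpha1A and alpha1B receptors, which signal through Gq to phospholipase C rather than through cyclic AMP. Adra1a had 27.5 CPM in WT1, 15.0 in WT2, 3.96 in S7, 12.3 in S8 and 3.38 in S9. Among male-labelled KO libraries the levels of Adra1a were 12.7 CPM in S10, 3.23 in S11, 5.94 in S12, 15.9 in TKO5 and 14.7 in TKO6. Among the libraries labelled female WT it had 11.1 CPM in S1, 3.06 in S2 and 4.45 in S3, and the libraries labelled female KO ran from 9.13 in S5 to 19.3 in TKO2 with a median of 13.3 CPM. The lowest levels of this gene, under 6 CPM, came from 6 S libraries of 3 groups. Adra1b was highest in S7 (46.4 CPM) and WT1 (44.4 CPM) and lowest in S9 (9.91 CPM), all labelled male WT, and its group means lay between 20.6 ± 3.31 CPM (SD, n = 5) in the libraries labelled male KO and 29.6 ± 15.5 CPM (SD, n = 5) in those labelled male WT. Per length, Adra1b exceeded Adra1a in all 20 libraries, with a median ratio of FPKM of 5.35 and extremes of 3.30 in TKO6 and 30.3 in S7. Adrb1 also exceeded Adra1a per length in all 20 libraries at the deposited length (median ratio 3.29), and in 19 of 20 at the longer length of Adrb1 given above (median ratio 2.43, and 0.963 in TKO2). It exceeded Adra1b in 1 library, S9.

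The cyclases and the kinase varied less. Adcy5 (chromosome 16, 35154877 to 35305738, plus strand) ran from 50.7 CPM in S3 to 125.3 in S7, and its coefficient of variation over the 20 libraries was 25.2%. Adcy6 (chromosome 15, 98589973 to 98610076, minus strand) ran from 141.9 CPM in TKO1 to 296.3 in S3, with a coefficient of variation of 21.3%. The ratio of Adcy6 to Adcy5 per length was above 1 in all 20 libraries, with a median of 2.75, a minimum of 1.29 in S7 and a maximum of 6.19 in S3. Prkaca (chromosome 8, 83972993 to 83996443, plus strand) had the lowest coefficient of variation of the 9 genes, 17.8%, and ran from 113.3 CPM in S9 to 235.9 in WT1. Gnas ran from 5.04 CPM in S2 to 11.4 in S1.

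Of the phosphodiesterases, Pde3a (chromosome 6, 141249269 to 141507448, plus strand), which cyclic GMP inhibits and which works beside phospholamban, had 110.4 CPM in WT1, 69.1 in WT2, 106.1 in S7, 123.2 in S8 and 74.1 in S9. Male-labelled KO libraries held 94.2 CPM in S10, 72.5 in S11, 69.3 in S12, 84.1 in TKO5 and 61.1 in TKO6. The libraries labelled female WT held 85.8 CPM in S1, 55.7 in S2 and 53.3 in S3, and those labelled female KO ran from 76.9 in TKO4 to 110.5 in TKO2 with a median of 86.6 CPM. Pde4b (chromosome 4, 102087543 to 102607259, plus strand), which is specific for cyclic AMP, was the most variable of the 9, with a coefficient of variation of 69.0%, and of 45.5% without S7, which is below the 52.1% of Adra1a without that library. It had 41.9 CPM in WT1, 29.8 in WT2, 128.3 in S7, 21.7 in S8 and 33.5 in S9. Across male-labelled KO libraries, Pde4b had 18.3 CPM in S10, 27.2 in S11, 17.5 in S12, 24.4 in TKO5 and 43.98 in TKO6. It had 22.7 CPM in S1, 50.3 in S2 and 29.2 in S3, and the libraries labelled female KO ran from 15.1 in S6 to 70.0 in TKO2 with a median of 29.2 CPM. S7 stood far above the rest, and it was also the library with the highest sum of atrial markers (7609 CPM) and of adipocyte markers (928.2 CPM, 5 of 6 markers above 3 counts).

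**Figure D2:**
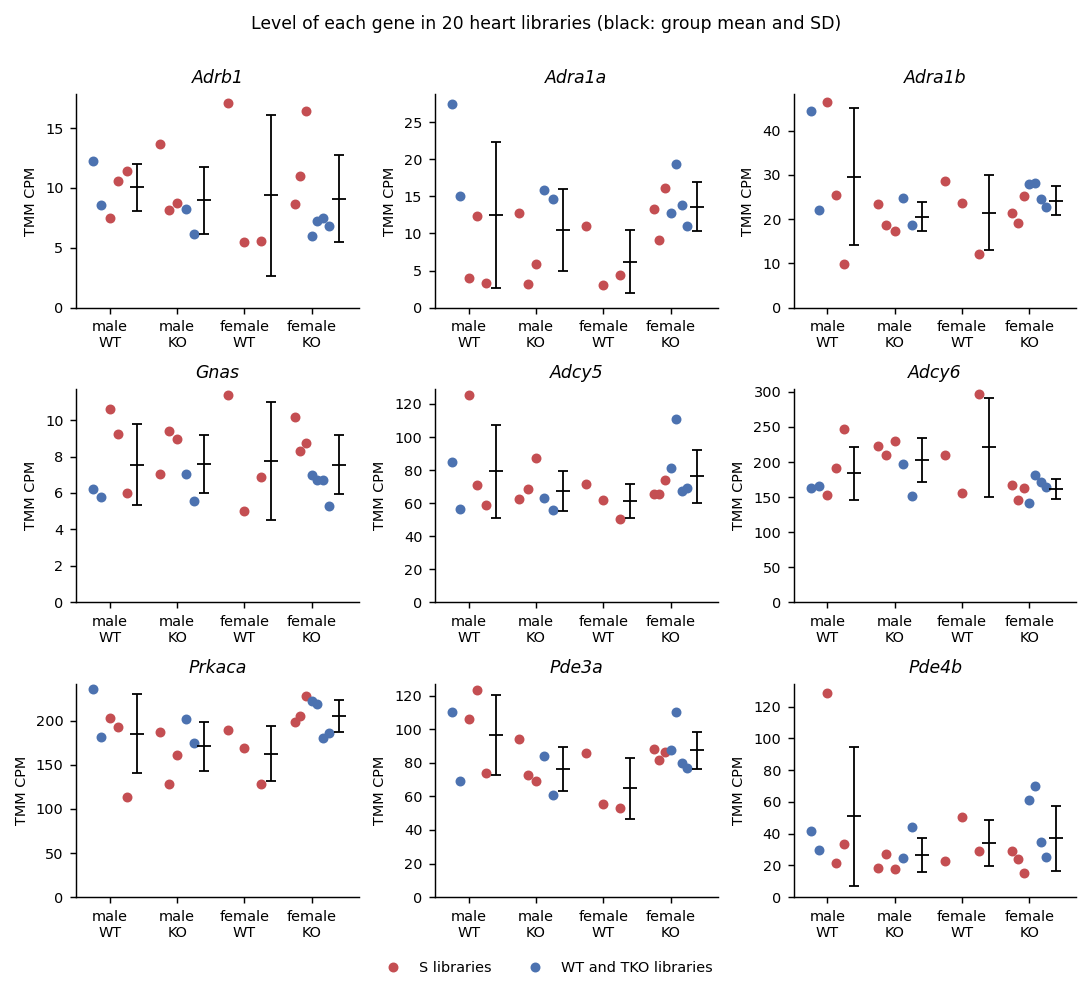
Level of each gene (TMM CPM) in every library by labelled group, with the group mean and SD in black, S libraries in red and WT and TKO libraries in blue. The WT and KO points overlap in each panel, and single libraries set the extremes, such as S7 for Pde4b at 128.3 CPM and S1 for Adrb1 at 17.1 CPM.

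To ask whether the pathway differed by genotype label, libraries labelled KO were compared with those labelled WT within each labelled sex. Among male labels, S7 to S9, all WT, carried Xist and every KO library carried Y-linked transcripts. Genotype label and sex-linked expression are thus partly confounded there. Among male-labelled hearts no member reached an adjusted p under 0.05, and 0% of the 14481 genes tested passed (688 had an unadjusted p under 0.05, and DESeq2 called 12 genes, none of them a member). Among the members, 2 had a higher and 7 a lower fitted level in KO, with a median log2 fold change of -0.20 against -0.01 over all genes. The estimates ran from 0.12 for Adcy6 (95% interval -0.19 to 0.43) to -0.97 for Pde4b (standard error 0.474, 95% interval -2.01 to 0.07, edgeR adjusted p = 0.88). Without S7 the log2 fold change of Pde4b was -0.25, and without the libraries with over 100 CPM of atrial markers it was -0.06. Adra1b differed by -0.53 (95% interval -1.27 to 0.21), Pde3a by -0.35 (-0.75 to 0.05), Adcy5 by -0.24 (-0.69 to 0.21), Adrb1 by -0.20 (-0.68 to 0.28), Prkaca by -0.13 (-0.51 to 0.26) and Adra1a by -0.13 (-1.05 to 0.79). Gnas was at 0.01 (-0.39 to 0.40). Without S7, Adcy5 was at -0.02 and Adra1b at -0.19, and without S8 Adra1a was at 0.24. With the Y-linked level as covariate, Adrb1 was at -0.58 and Adra1a at -0.54 (edgeR adjusted p = 0.9997 for both). At the thresholds of the study's methods, an unadjusted p under 0.05 and a log2 fold change of 0.58 or more in either direction, 0 of 9 members and 2.09% of all genes passed. Markers of other cells also differed: all 5 tested adipocyte markers were lower past these thresholds (median -4.09). All 5 mesothelial markers were lower by estimate (median -1.76), with 0 past them. No marker of any other cell type passed them. The part of these in the member estimates was not tested.

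Among female-labelled hearts, all WT libraries are of the S series, so with series as covariate the estimate set S4, S5 and S6, which carried Y-linked transcripts, against S1, S2 and S3. No member passed an adjusted p under 0.05, and 0.0551% of the 14511 genes tested passed. Adra1a passed the thresholds of the methods as 1 of 9 members, against 9.99% of all genes: its log2 fold change was 1.03 (standard error 0.38, unadjusted p = 0.0174, edgeR adjusted p = 0.213). The 7 libraries labelled female KO lay at 9.13 CPM or above, S2 and S3 below that, and S1 within their range. Adcy6 was lower by an estimate of -0.49 (95% interval -0.91 to -0.06, adjusted p = 0.242) and Prkaca higher by 0.37 (95% interval 0.04 to 0.70, adjusted p = 0.248), neither past the adjusted threshold nor past the fold of the methods. The other estimates were 0.39 for Pde3a (95% interval -0.0042 to 0.79), 0.35 for Adrb1 (-0.45 to 1.15), 0.22 for Gnas (-0.33 to 0.76), 0.15 for Adcy5 (-0.25 to 0.55), 0.02 for Adra1b (-0.50 to 0.54) and -0.58 for Pde4b (-1.42 to 0.25). Several of these estimates moved with the libraries used. Without S4 to S6, and so without a series term, Adrb1 was at -0.44, Gnas at -0.27 and Pde4b at 0.49, each with the sign turned, and Adra1a at 1.19 (edgeR adjusted p = 0.458, 0.527, 0.423 and 0.103). Without S1, Adra1a was at 1.76, Adrb1 at 1.10 and Pde3a at 0.63 on the log2 scale (edgeR adjusted p = 0.00444, 0.0137 and 0.0194), with 2 WT libraries left, and 16.8% of all genes passed in that fit. Without S3, Adcy6 was at -0.21 and Prkaca at 0.23 (edgeR adjusted p = 0.76 and 0.706), and without S2 Pde4b was at -0.18. Adrb1 was at 0.08, 0.09 and 0.06 without S2, S3 or S6. S2 and S3 also had the highest sums of 6 endothelial markers, 5523 and 4725 CPM against 2265 to 3752 in the other 18 libraries, and S2 the highest mitochondrial share of counts, 30.4%. The part of these in the differences was not tested.

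Over all 20 libraries, with labelled sex and series as covariates, 0 of 9 members and 0% of 15187 genes passed an adjusted p under 0.05 (748 had an unadjusted p under 0.05, DESeq2 called 12 and limma 1), and 0 members against 1.94% of genes passed the thresholds of the methods. Apart from Pde4b, at -0.72 (95% interval -1.50 to 0.06, edgeR adjusted p = 0.996), and Adra1b, at -0.29 (-0.75 to 0.18), the estimates lay between -0.07 and 0.19. Adrb1 differed by -0.04, with an interval of -0.48 to 0.40, and its sign turned in 6 of 31 alternatives (-0.36 to 0.20). Adra1a, at 0.19, ran from 0.03 without S2 to 0.44 without WT1, and was at -0.22 without S4 to S9 and at 0.60 in the S libraries alone. In the S libraries alone, genotype label and sex-linked transcripts cannot be told apart. The Pde4b estimate was -0.31 without S7.

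The genotype effects of both labelled sexes were then compared with each other in 1 fit. No member and 0% of genes passed an adjusted p under 0.05 (2375 had an unadjusted p under 0.05, DESeq2 called 19 and limma 0). Pde3a passed the thresholds of the methods as 1 of 9 members, against 11.3% of all genes. Its effect was lower in the libraries labelled male than in those labelled female by -0.81 on the log2 scale (standard error 0.260, unadjusted p = 0.00566, edgeR adjusted p = 0.226). In the fits above, Pde3a was lower in KO by an estimate of -0.35 in the libraries labelled male and higher by 0.39 in those labelled female, and each interval held 0. Both sides include libraries whose sex-linked transcripts went against the label, S7 to S9 and S4 to S6. Without S4 to S9 the difference was -0.90 (unadjusted p = 0.103, edgeR adjusted p = 0.961), as large in size but short of the thresholds of the methods. In that fit every group but male KO was of a single series, so the series term rested on S10 to S12 against TKO5 and TKO6. Markers of other cells moved with this comparison too: all 5 tested adipocyte markers were lower past those thresholds (median -7.10 on the log2 scale), all 7 atrial markers were lower and 3 of them passed (median -5.43), and 3 of 6 endothelial markers were higher. Their part in the Pde3a difference was not tested. Of 111 genes of the wider pathway, 8 were higher and 12 lower past the same thresholds.

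**Figure D3:**
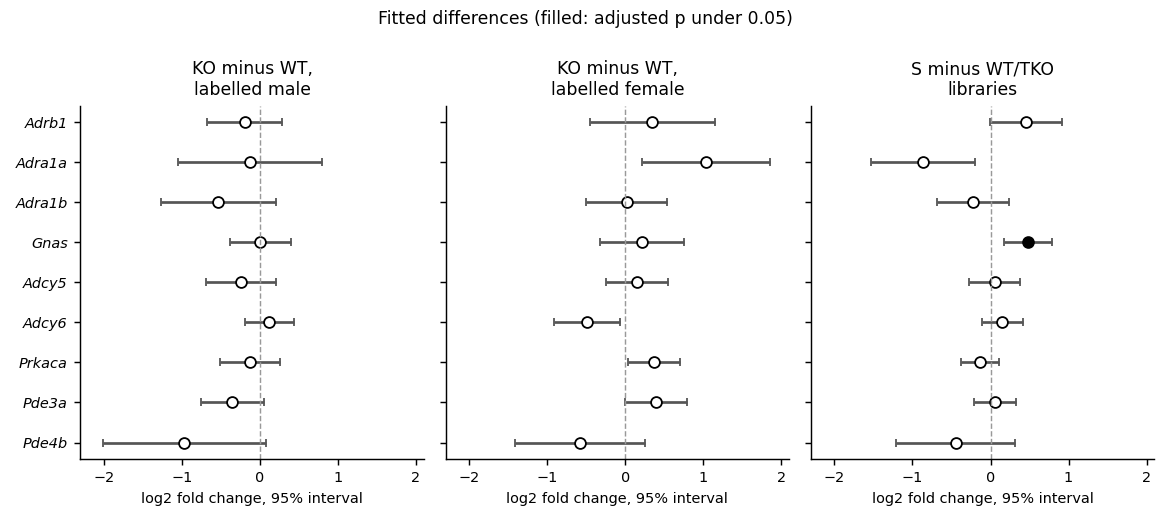
Log2 fold change of each gene with its 95% interval from edgeR, for KO against WT in the libraries labelled male (left) and female (middle) and for S against WT/TKO libraries (right). Filled points passed an adjusted p under 0.05, which only Gnas in the right panel did, at 0.48.

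The 12 S libraries were compared with the 8 WT/TKO libraries, with the 4 labelled groups as covariate, since the series may mark a batch of animals or of preparation that the labels do not describe. Among male WT labels, S7 to S9 carried Xist, and WT1 and WT2 carried Y-linked transcripts. Among female KO labels, S4 to S6 carried Y-linked transcripts and TKO1 to TKO4 carried Xist. Series and sex-linked expression cannot be told apart in those groups. Only male KO libraries carried Y-linked transcripts in both series. Of the 15187 genes, 14.7% passed an adjusted p under 0.05, and 1 of 9 members did. That member was Gnas, higher in the S libraries by 0.48 on the log2 scale (standard error 0.148, 95% interval 0.17 to 0.79, edgeR adjusted p = 0.0334). Its S libraries averaged 8.47 ± 1.91 CPM (SD, n = 12) and its WT/TKO libraries 6.28 ± 0.685 CPM (SD, n = 8). The higher level was seen in each group with both series: 8.6 against 5.99 CPM in the libraries labelled male WT, 8.46 against 6.31 in male KO and 9.07 against 6.42 in female KO. Leaving out 1 library moved its adjusted p between 0.0137 and 0.0697, and the call was lost without any one of WT1, WT2, S11, TKO6, S4, S6 or TKO4. The estimate stayed between 0.43 and 0.64 where the call was lost with fewer libraries or another covariate: 0.64 without the libraries with over 100 CPM of atrial markers, 0.54 with the atrial level as covariate, 0.48 in the libraries labelled female KO alone and 0.45 without S4 to S9 (edgeR adjusted p = 0.367, 0.22, 0.104 and 0.509).

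At the thresholds of the methods, 1 of 9 members passed, Adra1a, against 13% of all genes. Adra1a was lower in the S libraries by -0.87 on the log2 scale (standard error 0.32, unadjusted p = 0.0135, edgeR adjusted p = 0.0718). It passed the adjusted threshold in 4 of 33 alternatives: without S10 (-1.01, edgeR adjusted p = 0.0435), without a filter on low counts (0.00849), with the Y-linked level as covariate (0.0305) and with DESeq2 (0.0397). Of all genes, 15.0%, 9.32%, 17.4% and 19.3% passed in those fits. The series did not overlap in the libraries labelled male WT, where the S libraries held at most 12.3 CPM and WT1 and WT2 at least 15.0, nor in those labelled male KO, where the S libraries held at most 12.7 CPM and TKO5 and TKO6 at least 14.7. With 2 or 3 libraries a side such a separation is common: it was found for 29.8% and 34.7% of the genes with enough counts in those libraries. For female-labelled KO the series overlapped, at 12.8 ± 3.53 CPM (SD, n = 3) and 14.2 ± 3.61 CPM (SD, n = 4).

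Atrial markers were higher in the series in which Adra1a was lower. All 7 were higher in the S series with an adjusted p under 0.05, their sum was between 16.7 and 7609 CPM in the S libraries and between 11.2 and 21 CPM in the WT/TKO libraries, and Bmp10, an atrial-specific growth factor, was at 0 in 9 of the 13 libraries with low sums and in 2 of the 7 with high sums, S6 and S10. S7, S9 and S11, with the 3 highest sums (6154 to 7609 CPM), had 3.96, 3.38 and 3.23 CPM of Adra1a. S12, at 2194 CPM, had 5.94, while S6 and S10, at 368.8 and 579.9 CPM, had 16.2 and 12.7. S2 and S3 had 3.06 and 4.45 CPM of Adra1a with atrial sums of 32.9 and 45.9 CPM, and they are the libraries with the highest endothelial sums. With the atrial level as a covariate the series difference of Adra1a was 0.20, and without the 7 libraries with high sums it was -0.40 (edgeR adjusted p = 0.845 and 0.799). Within the S series, Adra1a averaged 7.79 CPM in those 7 libraries and 8.84 CPM in the other 5, with overlapping ranges. In the comparison of female labels, Adra1a and the 5 tested atrial markers were both higher in KO by estimate, the markers by a median of 3.93 on the log2 scale. In whole-heart RNA, fewer cells of a type and less RNA per cell cannot be told apart.

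**Figure D4:**
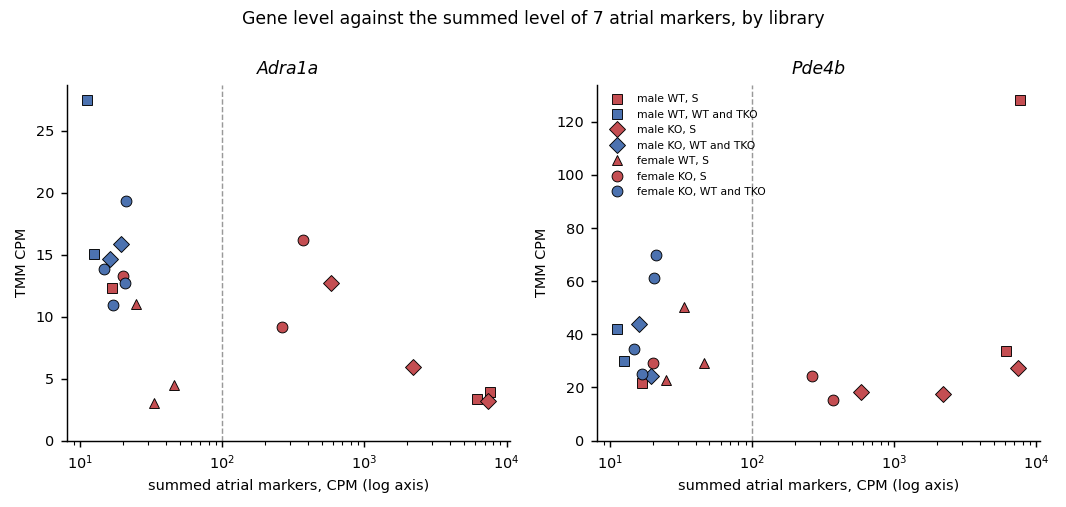
Level (TMM CPM) of Adra1a (left) and Pde4b (right) in each library against the summed CPM of 7 atrial markers on a log axis, with shapes for the labelled groups and colours for the series; the dashed line is at 100 CPM. The 3 libraries with the highest sums, from 6154 to 7609 CPM, have under 4 CPM of Adra1a, as S2 does with a sum of 32.9 CPM, and S7 alone is high in Pde4b.

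Adrb1 and Pde4b differed between the series in opposite directions among the libraries labelled KO. There, the 6 S libraries held 11.1 ± 3.34 CPM of Adrb1 (SD, n = 6) and the 6 TKO libraries 6.98 ± 0.841 CPM (SD, n = 6). Fitted on the libraries labelled KO alone, Adrb1 was higher in the S libraries by 0.67 on the log2 scale (edgeR adjusted p = 0.0262), in a fit where 11.2% of all genes and 3 of 9 members passed. Pde4b averaged 21.9 ± 5.75 CPM in the S libraries labelled KO (SD, n = 6) and 43.2 ± 19.0 CPM in the TKO libraries (SD, n = 6), lower by -0.92 on the log2 scale (edgeR adjusted p = 0.0342). Of the 6 S libraries labelled KO, 5 were high in atrial markers and all TKO libraries were low. The 5 averaged 11.6 CPM of Adrb1 and 20.5 of Pde4b, and the 7 KO libraries with low sums 7.22 and 41.2 CPM. In the fit of all libraries the same differences were 0.45 for Adrb1 (95% interval -0.01 to 0.91) and -0.45 for Pde4b (95% interval -1.21 to 0.32). Without S7 the Pde4b difference was -0.77 and passed (edgeR adjusted p = 0.0304, beside 17.2% of all genes), and without S6 it was -0.29. With the atrial level as covariate the differences were 0.66 for Adrb1 and -1.33 for Pde4b (edgeR adjusted p = 0.347 and 0.14), and without the 7 libraries with high atrial sums 0.19 and -0.71 (edgeR adjusted p = 0.912 and 0.59), so the direction of both was the same in these fits. Among male-labelled WT libraries they were -0.06 and 0.79, and S7 is 1 of the 3 S libraries there. For Adrb1 the S and TKO libraries labelled female KO did not overlap, with at least 8.68 and at most 7.50 CPM (0.79 on the log2 scale fitted on those alone, edgeR adjusted p = 0.0477, beside 6.59% of all genes), and the same held for Gnas, with at least 8.30 and at most 6.98 CPM. Of the genes with enough counts, 22.4% were separated in this way. Here S4 to S6 carried Y-linked transcripts and TKO1 to TKO4 Xist, so series and sex-linked expression cannot be told apart. In the fit of all libraries labelled KO, only TKO5 and TKO6 among the TKO libraries carried Y-linked transcripts.

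The intervals of the remaining members held 0 in the comparison of the series. The estimates were -0.23 for Adra1b (95% interval -0.69 to 0.24), 0.15 for Adcy6 (-0.11 to 0.41), -0.14 for Prkaca (-0.38 to 0.11), 0.06 for Pde3a (-0.21 to 0.33) and 0.05 for Adcy5 (-0.28 to 0.38). In the libraries labelled male KO, the S libraries held 210.0 to 230.5 CPM of Adcy6 and the TKO libraries 151.8 to 196.5, without overlap, as for the 34.7% of genes given above. Over the 9 members the median was 0.05, against 0.00 over all genes.

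The 3 members that differed between the series among the libraries labelled KO, Gnas, Adrb1 and Pde4b, are shown with the 250 bases before 1 of their RefSeq start sites (GRCm38.p6). The capitals mark the half-site of the cyclic AMP response element, TGACG or its reverse complement CGTCA, the motif that CREB family factors bind in promoters that cyclic AMP controls:

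Adrb1, chr19:56721867-56722116, plus strand: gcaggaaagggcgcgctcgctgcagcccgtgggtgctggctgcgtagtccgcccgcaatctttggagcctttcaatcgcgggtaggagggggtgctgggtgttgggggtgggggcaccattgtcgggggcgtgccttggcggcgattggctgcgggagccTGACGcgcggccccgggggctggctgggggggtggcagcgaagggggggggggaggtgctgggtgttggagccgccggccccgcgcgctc

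Gnas, the window before the start of Gnas-207, chr2:174329756-174330005, plus strand: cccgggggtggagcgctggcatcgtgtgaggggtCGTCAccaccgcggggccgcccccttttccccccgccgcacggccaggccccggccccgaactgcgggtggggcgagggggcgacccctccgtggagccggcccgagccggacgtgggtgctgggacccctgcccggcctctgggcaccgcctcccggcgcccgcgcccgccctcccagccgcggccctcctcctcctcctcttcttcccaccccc

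Pde4b, 1 of 4 listed windows, chr4:102421305-102421554, plus strand: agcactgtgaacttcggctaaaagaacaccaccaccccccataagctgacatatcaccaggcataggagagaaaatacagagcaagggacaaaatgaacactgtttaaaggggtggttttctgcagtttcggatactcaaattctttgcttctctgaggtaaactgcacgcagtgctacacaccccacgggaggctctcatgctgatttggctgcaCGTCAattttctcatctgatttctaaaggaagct

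In Adrb1 the half-site begins 90 bases before the start site, in Gnas 216 and in Pde4b 34. The half-site was found on either strand in 17.8% of the 32851 mouse windows of that length and in 6 of the 14 windows of the 6 members that could be matched by symbol, including 1 of Prkaca and 3 of Gnas, of which 2 overlap each other. The half-site itself holds a CpG. Adrb1, Gnas and Pde4b had 24, 29 and 5 CpG and 74.0%, 80.0% and 46.0% GC in the windows shown, against medians of 6 CpG and 52.4% GC over all windows. The Pde4b window shown is the only 1 of its 4 with the half-site. The full element TGACGTCA was in 1.55% of all windows and in 0 of the 14. These matches are letters in a window and were not tested for binding. Adra1a, Adcy6 and Pde3a had no entry in the table used.

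Pairs of members differed in how alike their levels were. Over the 20 libraries, which share group, series and depth, Spearman's rho of log2 CPM was 0.77 between Prkaca and Pde3a, 0.76 between Adra1b and Prkaca, 0.73 between Adra1b and Pde3a, 0.66 between Adra1b and Adcy5 and 0.62 between Adra1a and Prkaca. Adrb1 and Pde4b had the most negative rho, -0.62, followed by Adcy6 and Prkaca at -0.56, while Adrb1 and Adra1b (0.14) and Pde4b and Pde3a (0.01) were near 0. The genes most alike to each member by rho, among 15187, were Pgam1, Thap11 and Tprgl for Adrb1 (0.83 to 0.85) and Oma1, Klhdc1 and Tecr for Adra1a (0.92). Those of Adra1b were Ide, Wbp11 and Arih1 (0.90), those of Adcy5 Habp4, Pip4k2c and Meis2 (0.85 to 0.90), and those of Adcy6 Pla2g4b, Bcl9l and Pbld1 (0.85 to 0.89). For Gnas they were Hspb2, Gm12696 and St3gal5 (0.83 to 0.84), for Prkaca Capza2, Ccng1 and Trmt2b (0.94 to 0.95), for Pde4b Ppfia1, Arid5a and Dhx15 (0.88 to 0.91) and for Pde3a Scarb2, Paics and Clcc1 (0.93 to 0.95). Prkaca had 384 genes with a rho over 0.8 and Gnas 5.

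The rest of the pathway was followed in 12 lists with 117 genes in the table. Adra2a, an alpha2 receptor, and Adrb3, the beta3 receptor, had at most 3 counts in 20 and 19 of 20 libraries. Adcy4 (8.54 FPKM) and Adcy9 (1.84 FPKM) were the most abundant cyclases after the members, and Gnai2, an inhibitory alpha subunit, led the other G protein subunits at 59.0 FPKM. Prkar1a, a regulatory PKA subunit, stood at 82.5 ± 17.1 FPKM (SD, n = 20) and Pkig, a PKA inhibitor, at 36.2 FPKM. Pde4dip, which anchors phosphodiesterase 4, had 54.8 FPKM and Pde8a 7.12. Grk2 and Grk5, the kinases that desensitise the receptors, had 14.9 and 10.7 FPKM. For Grk5 the deposited FPKM used 3165 bases where GENCODE M21 gives 7055, and with that length its mean was 4.79 FPKM. Popdc2, a cyclic AMP binding membrane protein, had 135.5 FPKM. Among the PKA substrates, Tnni3 (2691 FPKM) and Mybpc3 (523.5 FPKM), both of the sarcomere, were the most abundant.

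In KO against WT, the adjusted threshold was passed by 0 of 108 tested genes of these lists for male labels, 0 of 108 for female labels and 0 of 111 in all libraries. At the thresholds of the methods, 2 genes were higher and 3 lower for male labels, beside 2.09% of all genes. They were Rrad, an inhibitor of the L-type calcium channel that PKA phosphorylates (0.82), and Plcb1, a phospholipase C (0.60), and, lower, Pde4d, a cyclic AMP phosphodiesterase (-1.37), Ppargc1a, a coactivator of mitochondrial genes (-0.94), and the kinase Sik1 (-0.62). Pde4d had 78.7 CPM in S7, against 11.4 to 23.5 CPM in the other 4 libraries labelled male WT and 8.34 to 12.7 CPM in the 5 labelled male KO. Ppargc1a had 592.9 CPM in WT1, and its levels overlapped between the groups. All 5 tested adipocyte markers were also lower past these thresholds for male labels (median -4.09), and their part was not tested. For female labels, 5 were higher and 10 lower, beside 9.99% of all genes. Past the same thresholds, 3 of 5 tested atrial markers, 2 of 2 adipocyte, 1 of 6 macrophage and 1 of 6 smooth muscle and pericyte markers were higher. Of the endothelial markers 1 of 6 was lower, and of the ventricular markers 1 of 11. The part of these markers was not tested. Of the 12 tested genes of cyclic AMP responsive transcription, 2 passed on each side: Nr4a3, a nuclear receptor gene that cyclic AMP induces (1.03), and Ppargc1a (0.83) were higher, and the clock gene Per1 (-0.66) and Crtc2, a coactivator of CREB (-0.65), were lower. The other higher genes were Rrad (1.73), the phosphodiesterase Pde7b (0.96) and the PKA inhibitor Pkia (0.59). Both Pnmt, which makes adrenaline (-1.74), and Dbh, which makes noradrenaline (-1.06), were lower. So were the phosphodiesterase Pde4c (-1.0), the kinase Prkd1 (-0.99), the potassium channel subunit Kcne1 (-0.91), Akap8 (-0.86), the receptor kinase Grk3 (-0.72) and Plcb4 (-0.62). Over all libraries 1 of 111 passed these thresholds, beside 1.94% of all genes: Rrad, at 1.06 (edgeR adjusted p = 0.643).

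Between the series, 5 of 111 genes of these lists were higher and 12 lower in the S libraries with an adjusted p under 0.05, beside 14.7% of all genes. Markers of other cells differed between the same libraries: 7 of 7 tested atrial, 5 of 5 adipocyte and 4 of 6 macrophage markers were higher in the S libraries at that threshold, and 2 of 11 ventricular markers were lower, Ttn (-0.52) and Ryr2, which is also 1 of the PKA substrates and is counted in both lists. Their part in the values that follow was not tested. The A-kinase anchoring proteins, scaffolds that hold PKA near its substrates, gave 3 lower of 10, Akap12 (-1.33), Akap13 (-0.43) and Akap9 (-0.38). The alpha1 effectors gave 3 lower of 11, Plcb1 (-0.71), Itpr2 (-0.63) and Plcb4 (-0.54). Among PKA substrates, Mybpc3 (-0.56), Ryr2, the ryanodine receptor (-0.40), and Cacna1c, the L-type calcium channel (-0.32), fell and Ppp1r1a, inhibitor 1 of protein phosphatase 1 (0.97), rose. The receptor kinases and arrestins gave 2 higher of 6, Arrb2 (0.66) and Grk5 (0.44). The alpha2 receptor Adra2c (1.49) and the cyclase Adcy7 (0.59) rose, and the cyclase Adcy9 (-0.72), the cyclic AMP sensor Rapgef4 (-0.61) and the phosphodiesterase Pde7a (-0.52) fell. At the thresholds of the methods 9 of the 111 were higher and 6 lower, beside 13% of all genes. Those among them that missed the adjusted threshold were Prkar2b (1.43), Adcy1 (1.35), Pde3b (0.85), Grk3 (0.71) and Gnao1 (0.63), with higher values in the S libraries, and Sik1 (-0.77), with a lower one.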

How the data were processed

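RNA of mouse hearts was sequenced in 20 libraries after a poly-A library preparation. The authors deposited raw counts of reads per gene, without normalization, and FPKM computed from those counts. The submitters' processing notes name HISAT2, HTSeq 0.6.1p2, DESeq2 1.26.0 and build GRCm38; strand setting and annotation are not given in the sources used here. Coordinates come from GENCODE M21, in which 29328 of 29339 identifiers were found. Groups came from the sample labels.

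edgeR 4.0.16 (TMM, quasi-likelihood test) was run on the counts of genes reaching 10 counts in 3 or more libraries, with library series as covariate and Benjamini-Hochberg adjustment. Levels are TMM CPM, or FPKM between genes. Alternatives used DESeq2 1.42.0, limma 3.58.1 on log2(FPKM + 1), other filters, normalization, covariates and libraries. R 4.3.3 and Python 3.11.15 were used. Each fit was tested on simulated counts with 200 genes changed by 2 on the log2 scale. That change is larger than the estimates of the members, so the check does not cover changes of their size. The 44 replicate pairs within groups all differed by more than counting noise. The study describes fewer mice than there are libraries, and the labels do not name animals, so libraries may share a mouse and p-values measure the spread between libraries, which may in part be technical. Members and lists were chosen with earlier results of these data known. All members are named. Other listed genes are named where they passed a threshold, except in the difference of genotype effects (at most 4 per list and comparison) or were the most abundant (at most 2 per list), with the 3 genes most alike to each member. One gene of the wider lists is not reported here.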

Additional observations from a re-analysis of the deposited data

Results flagged for a closer look

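Of 27 group and gene combinations with 4 to 10 libraries, 3 held a library whose gap to its nearest neighbour was large for the range of the group, and about 1 in 20 such groups is marked by chance. Pde4b had 128.3 CPM in S7, labelled male WT, against 21.7 to 41.9 CPM in the other 4 libraries. TKO2, labelled female KO, was marked for both Adcy5, with 110.7 CPM against 65.7 to 81.0 in the other 6 libraries, and Pde3a, with 110.5 CPM against 76.9 to 88.4. TKO2 also had the highest Pde4b level of its group, 70.0 CPM. The genotype effect of Pde3a differed between the labelled sexes by -0.81 on the log2 scale, labelled male minus labelled female, with an unadjusted p of 0.00566 and an edgeR adjusted p of 0.226.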

How the results depend on the processing

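No paired analysis was possible, because the labels do not name animals. Within a labelled sex and series, WT and KO libraries share no number in their names. WT1 and WT2 share numbers with TKO1 and TKO2, which are of the other labelled sex. No member came to pass an adjusted p under 0.05 among male-labelled libraries or in the fit of all libraries under any alternative run. In the libraries labelled female the number of members with an adjusted p under 0.05 was 0, and 2 without a filter on low counts (Adra1a and Pde4b), beside 4.06% of all genes. Leaving out 1 library at a time gave 0 to 3, with 3 without S1, beside 16.8% of all genes. For the difference of genotype effects the number was 0, and 0 to 1 leaving out 1 library, with Pde3a called without S1 (edgeR adjusted p = 0.0245, beside 7.45% of all genes). Between the series it was 1, beside 14.7% of all genes. It was 2 with DESeq2 (19.3% of all genes), without a filter (9.32%) and with Y-linked expression as covariate (17.4%). In the libraries labelled KO alone it was 3 (11.2%), and in those labelled female KO alone 1 (6.59%, Adrb1 in place of Gnas). No member passed without S4 to S9 (0.353%) or with the atrial level as covariate (1.74%). The same held without the libraries with over 100 CPM of atrial markers (0.484%). It held also in the libraries labelled male WT (0.00729%) or male KO (0.0517%) alone. Leaving out 1 library gave 0 to 2, with 2 without S7 (Pde4b added) or S10 (Adra1a added), beside 17.2% and 15.0% of all genes. The cause of these changes was not tested. The spread of Pde4b without S7 and the fits without the libraries high in atrial markers, of the WT/TKO libraries alone and of either labelled KO sex alone were added after the data were seen. Over all genes, DESeq2 called 12, 383, 12 and 19 for male labels, female labels, all libraries and the difference of effects, where edgeR called 0, 8, 0 and 0, and edgeR without a filter called 59, 1110, 3 and 129. Between the series, 2231 genes were called, against 52 without S4 to S9, 265 with the atrial covariate and 71 without the libraries high in atrial markers. Adra1a (45 to 438 counts per library), Adrb1 (76 to 345) and Gnas (69 to 229) rest on the fewest counts of the 9 genes.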
